A study of Mus musculus with 8 samples.

Results

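The genes described here are 8 components of the canonical Wnt pathway in the mouse, Ctnnb1, Gsk3b, Axin2, Apc and the TCF/LEF transcription factor genes Tcf7, Tcf7l1, Tcf7l2 and Lef1. They were chosen by name. Each gene span was extended by 50 kb on both sides, and every region of the accessible-chromatin list that overlapped this window by at least 1 bp was taken. All 8 genes were found, and their windows held 109 of the 76872 regions (0.142%), with no region in more than a single window. Accessibility was measured by ATAC-seq, which maps open DNA by the insertion of adapters with the Tn5 transposase, in a clone of mouse induced pluripotent stem cells carrying the FUCCI2 cell cycle reporter. The 8 libraries, each from 50000 cells, formed 4 groups of 2 replicates, A and B. They were cells shaken off in mitosis after 6 hours of nocodazole at 200 ng/ml (0 h), cells at 1 h and at 3 h after release from that arrest, and untreated asynchronous cells. All groups, the controls too, grew on irradiated feeder cells in serum with LIF, a MEK inhibitor and a GSK3 inhibitor, and all came from 1 clonal line. The titles and protocol of the samples name ATAC-seq and were followed here, while other labels give total RNA and a transcriptomic source. The labels do not say whether replicates A and B were separate cultures.

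The list analysed here is 1 set of genome positions for all libraries together. It holds no value for any library, so the released and mitotic cells could not be compared with the asynchronous cells, and the depth is unknown. The labelled cell type could not be checked against markers, since no expression was analysed. Regions of feeder cells and regions of stem cells cannot be told apart in it.

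In the canonical Wnt pathway, a destruction complex of Axin, Apc and the kinase Gsk3b marks beta-catenin for degradation. When Gsk3b is inhibited, beta-catenin accumulates, enters the nucleus and binds the TCF/LEF proteins, which sit on DNA through their HMG box. In mouse pluripotent stem cells Tcf7l1 is known mainly as a repressor of pluripotency genes, and beta-catenin is known to relieve this repression. Inhibition of GSK3 therefore favours self-renewal in these cells.

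All 8 genes had accessible regions, and the TCF/LEF genes Tcf7l1 and Lef1 had the most. In windows of the same kind, only 1270 of the 21887 protein-coding genes had none. Tcf7l1 had 29 regions in its window, Lef1 18, Gsk3b 14 and Tcf7l2 12. Fewer were found at Tcf7, with 10, at Axin2 and Apc, with 9 each, and at Ctnnb1, with 8. The median over the 8 genes was 11 regions, against 7 over all 21887 protein-coding genes (quartiles 3 and 10) counted in the same way. All 8 counts thus lay above the median of protein-coding genes, but the windows were also longer, with a median of 208 kb against 117 kb. Per 100 kb of window, the median was 6.53 regions, against 4.68 over all protein-coding genes (quartiles 2.44 and 7.60). By this measure 6 of the 8 genes lay above the median of protein-coding genes, while Apc, at 4.46, and Tcf7l2, at 4.11, lay below it. With 1 list and no replicate values, none of these differences could be set against a replicate error.

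**Figure D1:**
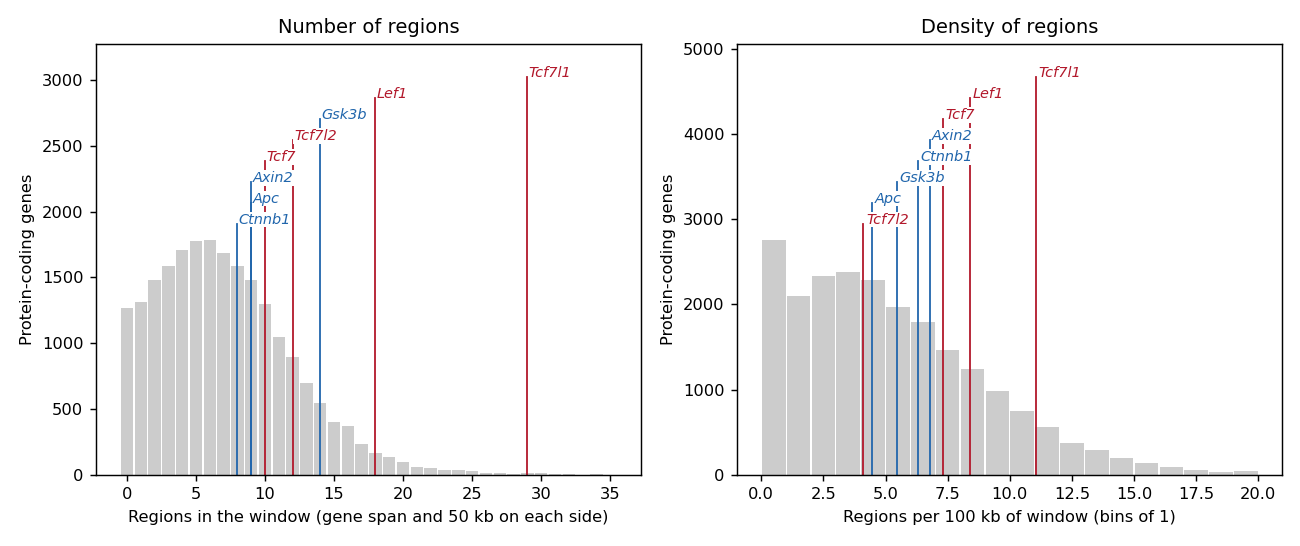
Number of accessible regions in the window of each protein-coding gene (left, regions per window of gene span and 50 kb on each side) and their density (right, regions per 100 kb of window), with the number of genes as grey bars. The 8 Wnt pathway genes are marked by lines, TCF/LEF genes in red and the others in blue. Tcf7l1 lies in the far tail by number, at 29 regions, and Tcf7l2 lies near the middle by density, at 4.11. The axes leave out 45 genes with higher numbers and 66 with higher densities.

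**Figure D2:**
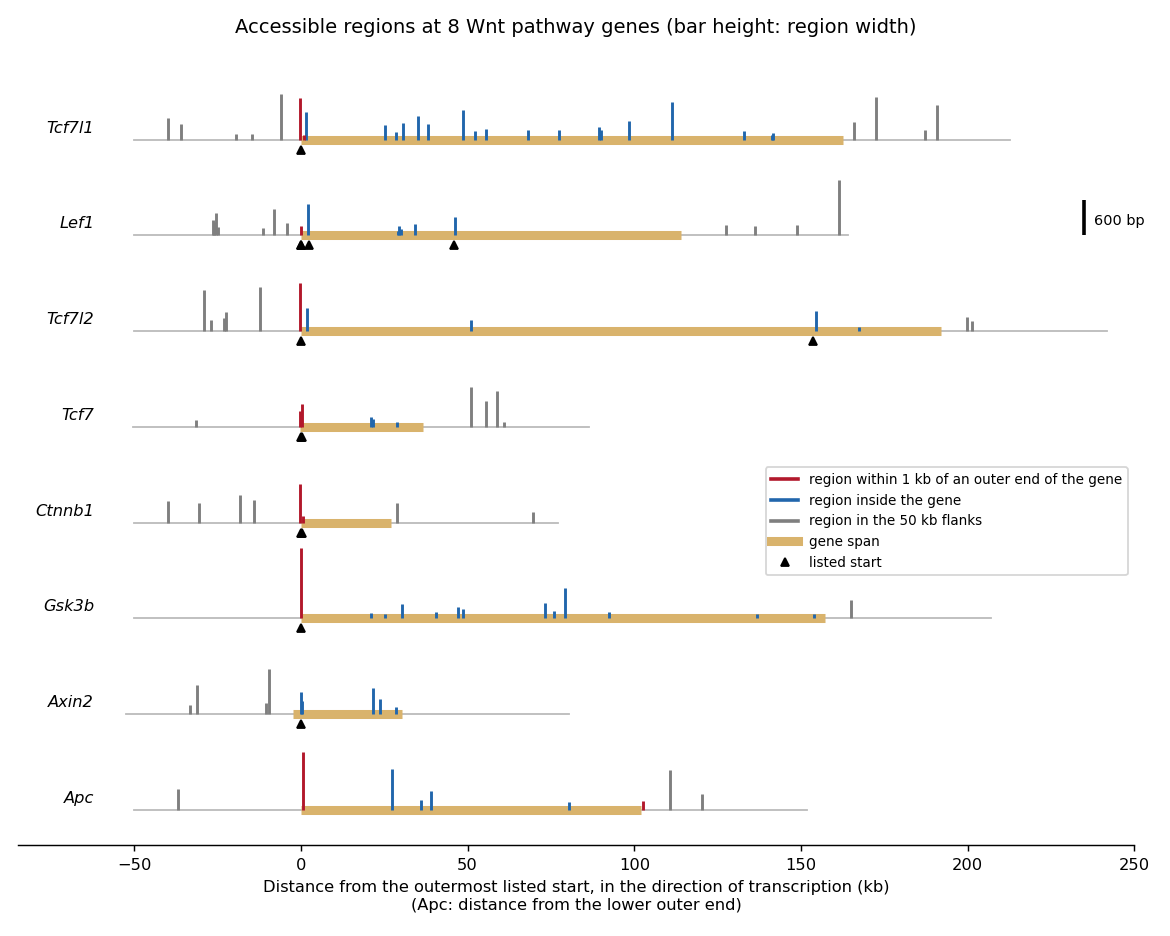
Map of the 109 accessible regions at the 8 genes, as distance in kb from the outermost listed start in the direction of transcription (Apc: from the lower outer end). The height of each bar is the width of the region, on the scale of the bar in the plot. Red bars lie within 1 kb of an outer end, blue bars inside the gene and grey bars in the flanks. Regions are spread along most of Tcf7l1, while the interior of Tcf7l2 holds a stretch of 103 kb without any.

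At the transcription start, every gene with a listed start had an accessible region. Starts and their promoter windows of 300 bases, from 250 before to 50 after the start, were taken from RefSeq annotation of the build GRCm38.p6. It listed 13 starts for 7 of the 8 genes, and no start of Apc was used. A region lay over at least 1 listed promoter window of all 7 genes, against 57.8% of the 17492 protein-coding genes with a listed window. Of the 13 windows themselves, 11 were touched by a region, against 54.8% of 21263 windows. Measured at the outer limits of the gene instead, 7 of the 8 genes had a region within 1 kb of an end, against 62.0% of protein-coding genes. The exception was Axin2, whose listed start lay 2521 bp inside its outer limit. Every one of the 8 genes was touched by at least 1 region, against 71.3% of protein-coding genes.

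The extent of open DNA over the start differed among the TCF/LEF genes. Their promoter windows are shown 5′ to 3′ on the strand of the gene, with the bases inside an accessible region in capitals, to show how much of each window was open. The open part came to 293 bases at Tcf7l1 (chr6:72788996-72789295, minus strand) and 288 at the outermost start of Tcf7l2 (chr19:55741560-55741859, plus strand). At Lef1 (chr3:131110047-131110346, plus strand) it was 156 bases. At Tcf7 it was 22 bases around the outer start (chr11:52282965-52283264, minus strand) and all 300 around the inner start (chr11:52282546-52282845, minus strand). The outer listed start of Tcf7 lay 369 bp inside the outer limit of the gene. A region of 269 bp covered that limit, so the 22 bases do not describe the outer end itself. The window at the inner start of Tcf7l2 (chr19:55895071-55895370, plus strand) had no open base.
Tcf7l1: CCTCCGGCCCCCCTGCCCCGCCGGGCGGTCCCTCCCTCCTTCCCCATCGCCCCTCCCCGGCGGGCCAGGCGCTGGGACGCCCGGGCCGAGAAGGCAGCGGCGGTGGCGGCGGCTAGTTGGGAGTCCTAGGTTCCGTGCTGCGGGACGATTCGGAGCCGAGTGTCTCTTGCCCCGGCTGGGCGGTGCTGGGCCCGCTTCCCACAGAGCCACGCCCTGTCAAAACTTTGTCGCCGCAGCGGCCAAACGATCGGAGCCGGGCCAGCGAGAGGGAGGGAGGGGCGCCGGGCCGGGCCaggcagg
Tcf7l2 outermost start: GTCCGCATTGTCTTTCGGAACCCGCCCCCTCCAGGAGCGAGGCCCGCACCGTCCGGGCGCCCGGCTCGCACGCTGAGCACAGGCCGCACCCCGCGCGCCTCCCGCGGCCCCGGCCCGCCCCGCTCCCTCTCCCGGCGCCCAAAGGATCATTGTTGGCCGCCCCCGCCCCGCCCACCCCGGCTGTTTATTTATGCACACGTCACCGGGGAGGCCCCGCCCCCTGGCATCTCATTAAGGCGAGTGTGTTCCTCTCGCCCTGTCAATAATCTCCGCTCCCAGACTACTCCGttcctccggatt
Lef1 outermost start: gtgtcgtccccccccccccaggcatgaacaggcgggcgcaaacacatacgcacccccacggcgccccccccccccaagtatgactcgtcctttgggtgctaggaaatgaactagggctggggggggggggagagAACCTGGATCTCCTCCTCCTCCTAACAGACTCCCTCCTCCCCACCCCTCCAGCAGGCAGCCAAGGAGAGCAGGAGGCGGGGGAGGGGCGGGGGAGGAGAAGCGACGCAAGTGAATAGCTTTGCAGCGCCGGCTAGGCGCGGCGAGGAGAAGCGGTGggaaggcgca
Tcf7 outer start: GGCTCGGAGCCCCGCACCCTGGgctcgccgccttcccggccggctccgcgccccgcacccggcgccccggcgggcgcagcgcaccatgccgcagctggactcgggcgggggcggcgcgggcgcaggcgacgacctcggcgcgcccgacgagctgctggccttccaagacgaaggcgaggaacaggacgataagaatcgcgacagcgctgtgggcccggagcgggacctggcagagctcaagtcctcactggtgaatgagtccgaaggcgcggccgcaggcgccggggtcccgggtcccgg
Tcf7 inner start: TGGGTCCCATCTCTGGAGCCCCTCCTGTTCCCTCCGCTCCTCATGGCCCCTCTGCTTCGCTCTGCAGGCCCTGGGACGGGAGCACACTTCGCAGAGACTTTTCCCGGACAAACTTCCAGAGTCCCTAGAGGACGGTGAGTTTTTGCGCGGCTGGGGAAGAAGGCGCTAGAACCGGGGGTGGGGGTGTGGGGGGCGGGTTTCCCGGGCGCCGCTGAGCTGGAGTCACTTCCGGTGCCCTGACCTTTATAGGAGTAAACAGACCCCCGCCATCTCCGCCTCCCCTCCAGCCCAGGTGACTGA
Tcf7l2 inner start: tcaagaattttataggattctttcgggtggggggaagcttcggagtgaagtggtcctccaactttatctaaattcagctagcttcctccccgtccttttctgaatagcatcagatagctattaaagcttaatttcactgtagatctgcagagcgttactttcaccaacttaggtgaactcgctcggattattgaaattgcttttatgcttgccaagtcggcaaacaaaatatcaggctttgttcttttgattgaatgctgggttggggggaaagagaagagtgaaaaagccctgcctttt

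The starts without an open window were poor in CG dinucleotides. The window at the outermost Tcf7l2 start held 34 CG and that at the inner start 7, against a median of 13 over all listed windows of protein-coding genes. The Tcf7l1 window held 34 CG, the Lef1 outermost window 18, the outer Tcf7 window 45 and the inner Tcf7 window 17. Of the 4 listed starts of Lef1, the outermost and its neighbour 26 bp away shared the same region of 156 bp. The start at 2494 bp from the outer end had 5 open bases and 8 CG, and the start at 45997 bp had no open base and 5 CG. Across all 13 windows, the 9 with at least 150 open bases held 17 to 51 CG, and the other 4 held 5 to 45, the 45 being the outer Tcf7 window. Over all listed windows, those touched by a region had a median of 22 CG and those not touched a median of 3. Both for these genes and for all, then, the touched windows held more CG than those not touched.

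The letters of the TCF/LEF binding core, CTTTGAT or CTTTGAA on either strand, were found in 0 of the 13 promoter windows. These 2 words differ in their last letter and cannot match at the same place. Of all 21263 windows, 7.57% held a match. The count says that these letters are not in these windows of 300 bases, and nothing about binding elsewhere.

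Ctnnb1, which encodes beta-catenin, the effector of the pathway and a partner of cadherins at cell junctions, had an open promoter, regions in both flanks and none in the rest of the gene. The gene (chromosome 9, 120933400 to 120960507, plus strand) had 8 regions, or 6.29 per 100 kb, and 42.4% of protein-coding genes had as many or more. A region of 654 bp covered the outermost start and a region of 104 bp lay 272 bp downstream of that region. The remaining 26.6 kb of the gene, 98.0% of its length, was touched by no region. Upstream there were 4 regions of 338 to 461 bp, between 14.1 and 39.8 kb from the start. Of all protein-coding genes with a listed start, 27.4% had as many regions upstream. Downstream, a region of 325 bp lay 1.65 kb beyond the gene, and a region of 178 bp lay inside the neighbouring gene Ulk4.

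Gsk3b, which like its paralog Gsk3a encodes a GSK3 kinase, had the widest region of all 8 genes at its start. The gene (chromosome 16, 38089001 to 38246084, plus strand) had 14 regions, or 5.45 per 100 kb. The start lay in a region of 1185 bp, a width that 5.06% of all regions at coding gene ends reached. The other 12 regions that touched the gene were narrow, from 73 to 516 bp with a median of 123.5 bp. Of these, 2 had the lowest width in the list, 73 bp. In all, 13 regions touched Gsk3b, against a median of 4 over 742 protein-coding genes within 20% of its length, of which 7.01% had as many. Many of these regions were narrow, and with regions of at least 150 bp alone the whole window of Gsk3b held 7 in place of 14, or 2.72 per 100 kb in place of 5.45. The flanks were nearly empty, with no region in the 50 kb upstream and 1 of 304 bp downstream, inside Nr1i2, which encodes the pregnane X receptor.

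Axin2, a scaffold of the destruction complex and itself a known target of Wnt signalling, had its regions at the start, in the gene and upstream. The gene (chromosome 11, 108917828 to 108950783, plus strand) had 9 regions, or 6.77 per 100 kb. The listed start lay in a region of 373 bp, and a region of 227 bp followed after 185 bp. Further regions of 439, 263 and 125 bp lay 21.5, 23.6 and 28.4 kb downstream of the start, inside the gene. The 5 regions in the gene were more than at most genes of similar length, for which the median was 2 and 7.10% had 5 or more. Upstream, a region of 765 bp was centred 9.48 kb before the start, next to a region of 194 bp at 10.5 kb. Regions of 488 and 153 bp lay 31.2 and 33.2 kb before it, and the downstream flank held none. No other protein-coding gene entered the window of Axin2.

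Apc, the large scaffold protein of the destruction complex and a tumour suppressor, had a wide region at its lower end and another inside the gene. The gene (chromosome 18, 34220297 to 34322190) had 9 regions, or 4.46 per 100 kb, a density that 52.3% of protein-coding genes reached. A region of 978 bp lay just inside the lower end, from 34220549 to 34221526, and a region of 153 bp lay 0.494 kb beyond the upper end. Inside the gene, regions of 685, 159, 317 and 141 bp followed from the lower to the upper end. A region of 679 bp in the upper flank lay at an end of Srp19, a subunit of the signal recognition particle, a neighbour in the same window. A region of 273 bp lay 18.4 kb beyond the upper end of Apc, and a region of 355 bp lay 36.8 kb beyond the lower end.

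Among the TCF/LEF genes, Tcf7l1 stood out by the number of regions inside the gene. The gene (chromosome 6, 72626371 to 72789045, minus strand) had 29 regions, or 11.0 per 100 kb, and only 91 of 21887 protein-coding genes (0.416%) had as many or more. Among 1243 protein-coding genes whose window length was within 20% of its own, the median was 8 regions and 1.69% had as many. By density the position was less extreme, since 8.41% of protein-coding genes were as dense. Of the 29 regions, 20 touched the gene, against a median of 4 in genes of similar length. They were spread over the gene, and the longest stretch without a region was 23.2 kb, or 14.3% of its length. A region of 709 bp covered the start, followed inside the gene by regions of 84 and 473 bp. The widest of the remaining regions in the gene, of 636 bp, was centred 111 kb from the start, and regions of 503 and 404 bp lay at 48.5 and 35.2 kb. Upstream of the start there were 5 regions, the widest being 780 bp at 6.03 kb. Among the regions of the whole list away from coding gene ends, 5.18% were as wide. Downstream there were 4 regions, of which 1 of 584 bp lay at ends of Elmod3 and Retsat and 1 of 728 bp at an end of Tgoln1.

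Lef1, a TCF/LEF factor known from lymphocyte and hair follicle development, had most of its regions outside the gene. The gene (chromosome 3, 131110297 to 131224357, plus strand) had 18 regions, or 8.41 per 100 kb, and 3.37% of protein-coding genes had as many or more. Among 2149 genes of similar window length 6.61% had as many, and by density 19.9% of protein-coding genes were as dense. Of its 18 regions, 7 lay upstream, 7 touched the gene and 4 lay downstream. The 7 upstream regions compared with a median of 2 over protein-coding genes with a listed start, of which 6.44% had as many. They included a tight group of 4 regions of 268, 220, 377 and 151 bp within 1614 bp, from 131083800 to 131085413. The nearer edges of these regions lay 24.9 to 26.2 kb before the gene. Of the 76809 runs of 4 neighbouring regions in the whole list, 24 (0.0312%) were as tight. This run was picked as the tightest in its window, so the rank is a description. For the tightest runs of the other windows the share was 2.26% to 33.4%. The 4 regions lay as near as 163 bp to each other and made up 4 of the 7 upstream regions. Whether they are parts of a single open stretch was not tested. The remaining upstream regions, of 124, 455 and 204 bp, lay 11.3, 7.97 and 4.21 kb before the start. The region over the start was narrow, at 156 bp, and 87.4% of all regions at coding gene ends were as wide or wider. A wider region of 535 bp followed 1.98 kb inside the gene, ending 246 bp before the third listed start. Inside the gene, regions of 73, 165, 115 and 196 bp lay between 29.0 and 34.1 kb, and a region of 310 bp at 46.4 kb lay 199 bp beyond the innermost start. The last 67.6 kb of the gene, 59.2% of its length, had no region. The 4 downstream regions all lay inside Hadh, an enzyme of fatty acid oxidation, and the widest, of 932 bp, lay at its end.

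Tcf7l2, known for its part in the intestinal epithelium and in glucose metabolism, had open DNA at and before its start and a long stretch without regions inside the gene. The gene (chromosome 19, 55741797 to 55933659, plus strand) had 12 regions, or 4.11 per 100 kb, and 55.5% of protein-coding genes were as dense. The start lay in a region of 808 bp, with a region of 397 bp at 1.68 kb inside the gene. Upstream there were 5 regions, among them 1 of 754 bp at 12.1 kb and 1 of 700 bp at 29.1 kb before the start. The regions between them, of 187, 223 and 332 bp, lay at 27.0, 23.1 and 22.6 kb. Inside the gene, after a region of 189 bp at 50.9 kb, no region was found over 103 kb, from 55792843 to 55896142, which is 53.8% of the gene. The stretch ended at a region of 342 bp whose nearer edge lay 822 bp beyond the inner start. The 5 regions touching the gene equalled the median of 5 for 609 genes of similar length. No other protein-coding gene entered the window of Tcf7l2.

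Tcf7 is the gene of TCF1, known as an activating member of the family in stem cells and in T cells. At 36.9 kb it was the shortest of the TCF/LEF genes, and most of its regions lay in the gene or downstream. The gene (chromosome 11, 52246527 to 52283383, minus strand) had 10 regions, or 7.31 per 100 kb, and 28.4% of protein-coding genes had as many or more. The outer listed start lay between regions of 269 bp upstream and 381 bp downstream, and the inner listed start lay in the region of 381 bp. The outer limit of the gene, 369 bp before the outer listed start, lay in the region of 269 bp. Inside the gene there were further regions of 162, 140 and 84 bp at 20.9, 21.8 and 28.9 kb. The 5 regions touching the gene compared with a median of 2 in genes of similar length, of which 8.43% had as many. Upstream there was a single region of 122 bp, at 31.6 kb. Of the 4 regions downstream, 1 of 681 bp lay over a listed promoter window of Skp1, a subunit of the SCF ubiquitin ligase. Regions of 441, 611 and 87 bp lay farther downstream and in no coding gene.

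Set side by side, the 4 TCF/LEF genes held 69 regions and the other 4 genes 40. By number the order was Tcf7l1 (29), Lef1 (18), Tcf7l2 (12) and Tcf7 (10). Per 100 kb the order was Tcf7l1 (11.0), Lef1 (8.41), Tcf7 (7.31) and Tcf7l2 (4.11), so Tcf7 and Tcf7l2 changed places. The order of these 2 genes by number also turned round when the windows were extended to 100 kb, where Tcf7l2 had 5 regions fewer than Tcf7. Inside the gene span alone, the density was 13.6 regions per 100 kb in Tcf7, 12.3 in Tcf7l1, 6.14 in Lef1 and 2.61 in Tcf7l2. The value of Tcf7 rests on 5 regions and that of Tcf7l1 on 20, with regions under 150 bp in both. The gene-span densities were not computed without those narrow regions, so the order of Tcf7 and Tcf7l1 may depend on them. In the flanks the order was different, with 11 regions per 100 kb at Lef1, 9 at Tcf7l1, 7 at Tcf7l2 and 5 at Tcf7. Tcf7l1 and Tcf7 were thus denser inside the gene than in the flanks, and Lef1 and Tcf7l2 denser in the flanks. Upstream of the gene, Lef1 had 7 regions, 4 of them in its tight group, Tcf7l1 and Tcf7l2 5 each and Tcf7 1. The median over protein-coding genes with a listed start was 2. When only regions of at least 150 bp were counted, Tcf7l1 had 6 regions more than Lef1, in place of 11. These are single values of 1 list, and no test of the differences was possible.

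**Figure D3:**
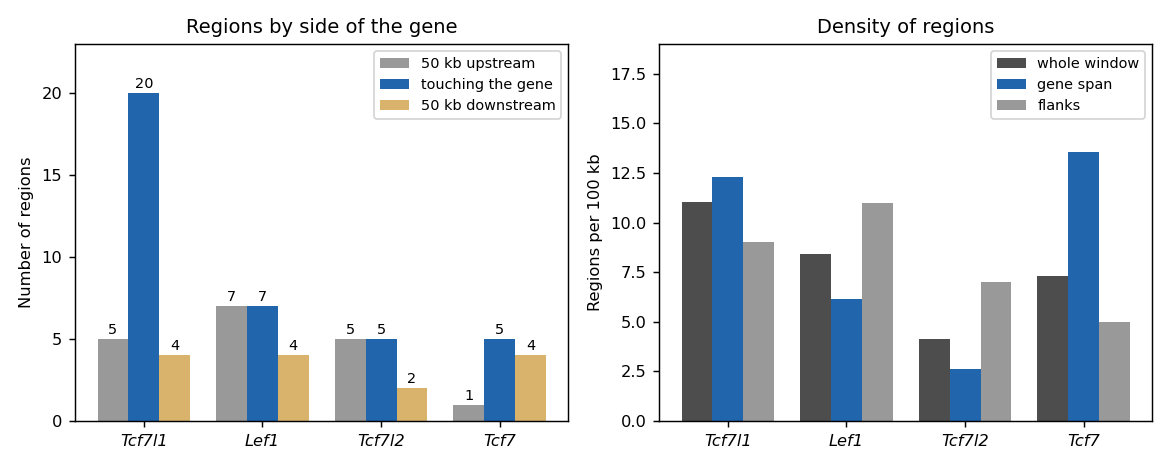
Accessible regions at the 4 TCF/LEF genes by side of the gene (left, number of regions upstream, touching the gene and downstream) and per 100 kb of the whole window, the gene span and the flanks (right). Tcf7l1 has 20 regions touching the gene, and Lef1 has 7 upstream. The gene span of Tcf7l2 is the least dense, at 2.61 regions per 100 kb.

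Regions at the gene ends were wider by median than the rest, as in the whole list, though their widths overlapped. The 11 regions within 1 kb of an outer end of the 8 genes had a median of 381 bp and ranged from 84 to 1185 bp. The 52 other regions inside the genes had a median of 172.5 bp and the 46 in the flanks a median of 301 bp. Over all 109 regions the median was 241 bp, against 281 bp in the whole list. The 15 regions within 1 kb of an end of any coding gene had a median of 654 bp. In the whole list the 15779 regions at such ends had a median of 525 bp. Leaving these out, the 94 that remained had a median of 218 bp, against 246 bp for the 61093 that remained in the whole list. None of the 94 belonged to the widest 5% of those regions, and the regions of 780 bp at Tcf7l1, 765 bp at Axin2 and 754 bp at Tcf7l2 came closest. The lowest width in the list, 73 bp, was held by 5 of the 109 regions (4.59%), against 3.97% of the whole list. Median widths per window were lowest at Gsk3b, at 149 bp, and highest at Ctnnb1, at 348 bp, with Lef1 at 190.5 bp, Tcf7 at 215.5 bp, Tcf7l1 at 241 bp and Tcf7l2 at 288 bp. The ranges of width of the 8 genes overlapped.

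**Figure D4:**
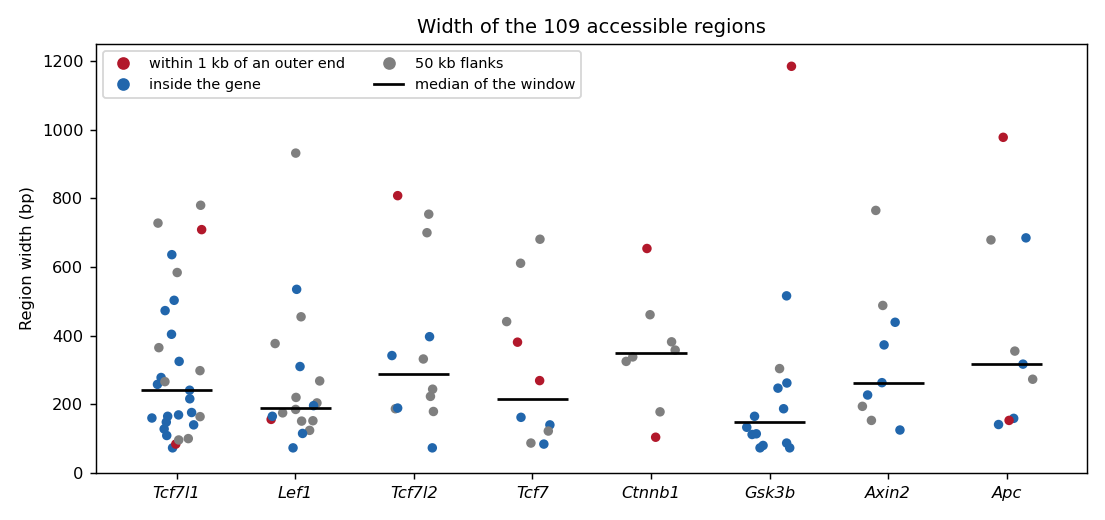
Width in bp of each of the 109 regions, by gene, coloured by place, with the median of each window as a line. The widest region of every gene lies at an end of the gene or in a flank, and the narrow regions of Gsk3b, with a window median of 149 bp, lie inside the gene.

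Of the 109 regions, 62 touched the gene they were counted for, and 4 lay within 1 kb of an end of another protein-coding gene. Those 4 were 2 in the window of Tcf7l1, 1 at Apc and 1 at Lef1. A further region, of 681 bp in the window of Tcf7, lay 1.12 kb from an end of Skp1. With the own ends included, 15 of the 109 lay within 1 kb of a coding gene end, against 15779 of 76872 in the whole list. For the 7 genes with a listed start, 26 regions lay upstream of the gene and 17 downstream. The median per protein-coding gene with a listed start was 2 on either side. By distance from the outermost start, 11 regions of the 7 genes were centred within 1 kb and 7 between 1 and 10 kb. Another 46 lay between 10 and 50 kb and 36 farther away. These distances were not counted for other genes.

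Other genes of the pathway were described by role, from a list of 88 genes, all of which were matched. A region lay within 1 kb of an outer end of 68 of them (77.3%), against 62.0% of protein-coding genes, and the median number of regions per window was 8, against 7. Since both ends of a gene were used and windows differ in length and in neighbours, these shares are descriptions, and no list was tested. By density the median was 5.70 regions per 100 kb, against 4.68. Every one of the 88 genes had at least 2 regions in its window.

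The Wnt ligands were the role with the lowest share of genes open at an end. Of 19 ligand genes, 9 had a region at an end (47.4%), with a median of 7 regions. Wnt5b had 13 and Wnt9b 11, with no region at an outer end of either gene, and the fewest were 2, at Wnt16, Wnt2 and Wnt9a. Of the 12 receptors and co-receptors 10 had a region at an end. Lrp6, the co-receptor, had 14 regions but none at an outer end, the frizzled receptor gene Fzd7 had 10, and Fzd4 and Fzd6 had 2 each. Both genes of ligand processing had a region at an end, with 11 regions at Porcn, which encodes the enzyme that acylates Wnt proteins, and 5 at Wls, which encodes their carrier. Among R-spondins and their receptors 8 of 9 genes had a region at an end, and the counts were 13 at Lgr6, 12 at Lgr4 and 2 each at Rspo1 and Rspo4. Of the secreted antagonists 9 of 10 had a region at an end, with 12 regions at Notum, a Wnt deacylase, 7 each at Dkk1 and Sfrp5 and 4 each at Sfrp1 and Sfrp4.

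The 13 genes of cytoplasmic transducers and of the destruction complex had a median of 12 regions and 7.53 per 100 kb, and 11 of them had a region at an end. Gsk3b, with 14 regions and 5.45 per 100 kb, was less dense than its paralog Gsk3a, with 18 regions and 16.4 per 100 kb. Of these, 13 touched Gsk3b and 1 touched Gsk3a. The 2 genes differ much in length, with windows of 257 kb and 110 kb that include the flanks. The touching counts are therefore not comparable by number. Apc2, the paralog of Apc, and Dvl2, which encodes a Dishevelled protein, had 15 regions each, and Amer1, an X-linked partner of Apc, had 2. The 13 genes of nuclear partners had a median of 11 regions, and 10 had a region at an end. Tle2 had 19 and Tle5 16, both of the Groucho family of co-repressors, but these genes are neighbours and 14 regions lay in both windows. The fewest among nuclear partners were the 6 regions at the co-repressor gene Ctbp1. Of the 10 known targets 9 had a region at an end, with 11 regions each at Ccnd1, which encodes cyclin D1, and Sp8, and 2 at Nkd2.

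**Figure D5:**
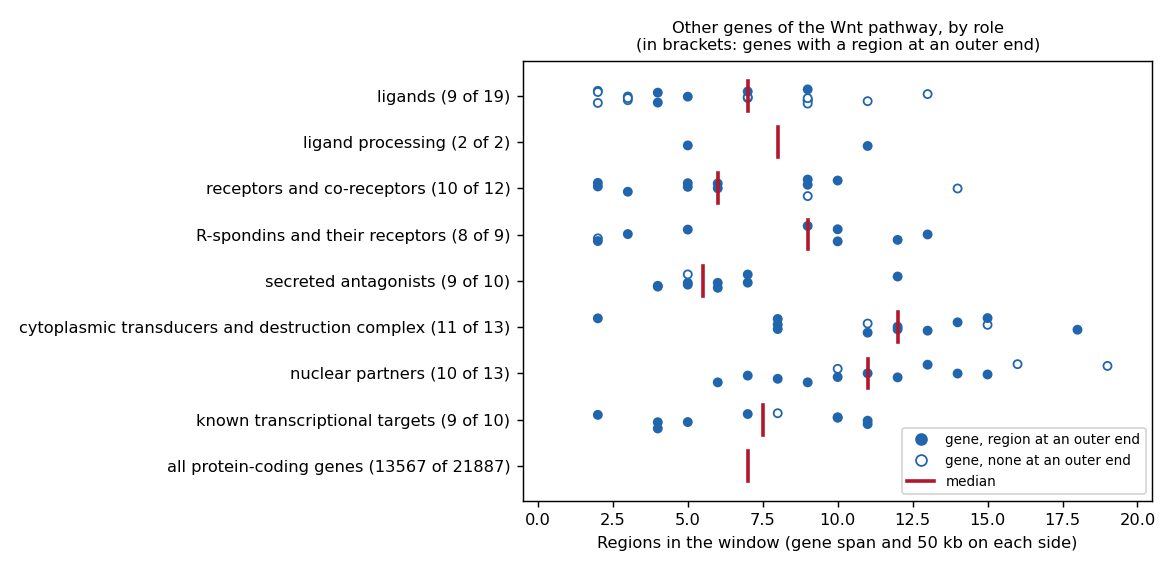
Number of accessible regions in the window of each of the 88 other genes of the Wnt pathway, by role, with filled points for genes with a region within 1 kb of an outer end and red lines for medians. The median was 12 for cytoplasmic transducers, 11 for nuclear partners and 7 for ligands, with 7 for all protein-coding genes in the bottom row.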

How the data were processed

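ATAC-seq was measured in 8 libraries of 4 groups. The authors deposited 1 list for all libraries, of positions in base pairs (an "other" kind of value) without a count, score or signal, so libraries, replicates and depth could not be compared. Per the submitters' processing notes, the tools were MACS2 2.1.1, SAMtools, Picard, bedtools, Bowtie2 and cutadapt, and the build GRCm38 (mm10). For their settings, a Tn5 shift and the merging of libraries, nothing is given in the sources used here.

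Coordinates were converted to count from 1. Gene spans and promoter windows came from RefSeq annotation of GRCm38.p6. Regions were counted with Python 3.11.15, pandas 2.3.3 and numpy 2.4.6, at an overlap of 1 bp, in windows of the gene span and 50 kb on each side, for all 21887 protein-coding genes alike. The counting was tested on simulated data. No test was made, since genes and regions of 1 list are not replicates.

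The 8 genes and the lists were chosen with earlier results of these data known. Named genes were the 8, neighbouring coding genes with regions inside them or at their ends, and some noncoding genes touched by regions. Per role, the 2 genes with the most regions and the 1 with the fewest were named (ties by symbol, with tied genes named beside them). Protein sequences were not used here. Alternatives were other extensions, overlaps, widths, distances and backgrounds.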

Additional observations from a re-analysis of the deposited data

How the results depend on the processing

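No paired analysis was possible because the list holds no value per library, and leaving out replicates was not possible for the same reason. Counting only regions that touch the gene span gave 62 regions in all and a median of 5. The remaining totals ran from 83 to 148 and medians from 8 to 16, also with each gene left out in turn. A region at an outer end was found for 7 or 8 of the genes under every distance and width tried. Between the TCF/LEF genes, Tcf7l2 minus Tcf7 turned round to -5 regions with extensions of 100 kb. It was 1 with 25 kb, 0 in the gene span, 5 with regions of at least 150 bp and 1 without the 73 bp regions, and per 100 kb it was -6.23, -11.0 and -0.62 under the first 3 of these. Lef1 minus Tcf7l2 was 3, 10 and 2 regions with 25 kb, 100 kb and the gene span. Tcf7l1 minus Lef1 was 18 regions with 100 kb and 6 with regions of at least 150 bp. Per 100 kb it was 4.30, 3.98, 6.16 and 0.99 with 25 kb, 100 kb, the gene span and regions of at least 150 bp. The cause of these shifts was not tested. Of the remaining values (counts, densities and ranks of single genes, and the share of all coding genes with an end region), 119 moved by at most 1.5 times and 28 by more. Region centres, whole regions and leaving out ends of other genes changed none of these values by over 1.5 times. The depth is unknown, so regions too weak to be called cannot be counted.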

Other observations

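The letters CCAAT, a promoter element bound by the factor NF-Y, were searched after the promoter sequences had been seen. They were found on either strand in 3 of the 13 listed windows, those at the outermost start of Ctnnb1 and at the starts of Gsk3b and Axin2, and in none of the 9 windows of the TCF/LEF genes. The Gsk3b window held 4 matches, a number that 1.25% of all 21263 windows reached. The Ctnnb1 window held 2, reached by 12.8%, and the Axin2 window 1, and 38.2% of all windows held at least 1. These 3 windows lay wholly inside an accessible region. They are shown 5′ to 3′ with CCAAT, or its complement ATTGG, in capitals, for Gsk3b (chr16:38088751-38089050, plus strand), Ctnnb1 (chr9:120933150-120933449, plus strand) and Axin2 (chr11:108920099-108920398, plus strand).
Gsk3b: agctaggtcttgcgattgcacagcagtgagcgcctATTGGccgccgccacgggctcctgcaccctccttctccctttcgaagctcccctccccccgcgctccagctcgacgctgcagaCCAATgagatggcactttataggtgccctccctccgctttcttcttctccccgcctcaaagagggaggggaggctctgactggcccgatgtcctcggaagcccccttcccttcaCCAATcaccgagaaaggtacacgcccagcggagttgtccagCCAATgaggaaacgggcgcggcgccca
Ctnnb1: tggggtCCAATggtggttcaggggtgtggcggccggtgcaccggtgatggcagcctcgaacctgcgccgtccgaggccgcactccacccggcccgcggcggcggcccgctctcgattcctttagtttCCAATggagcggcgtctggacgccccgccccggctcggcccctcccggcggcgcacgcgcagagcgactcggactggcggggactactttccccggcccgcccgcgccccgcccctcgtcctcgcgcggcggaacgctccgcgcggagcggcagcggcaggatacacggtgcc
Axin2: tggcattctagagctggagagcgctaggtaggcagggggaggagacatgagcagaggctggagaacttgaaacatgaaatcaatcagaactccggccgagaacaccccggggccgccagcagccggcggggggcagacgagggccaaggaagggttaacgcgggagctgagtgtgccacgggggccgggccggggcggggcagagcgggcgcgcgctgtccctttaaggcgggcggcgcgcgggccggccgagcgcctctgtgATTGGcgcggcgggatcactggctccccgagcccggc

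The GC box GGGCGG, on either strand and likewise chosen after the sequences were seen, was found in 10 of the 13 windows, against 46.2% of all windows, and the outermost Tcf7l2 window held 6. The Gsk3b window and the innermost windows of Tcf7l2 and Lef1 held none. The letters TATAAA, on either strand and likewise not chosen in advance, were found in 5 of the 13 windows, against 12.6% of all windows. Both windows without an open base were among these, with the complement TTTATA. At the outermost start of Lef1, the bases outside the region held a run of 12 identical bases, and the longest run inside it was 5. These matches are descriptions of letters, and windows of neighbouring starts overlap at Ctnnb1 and Lef1.

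Of the 109 regions, 17 touched a noncoding gene (15.6%), against 13.6% of the whole list. All 4 upstream regions of Axin2, of 153 to 765 bp, touched the lncRNA gene Gm46298 (chromosome 11, 108864075 to 108910959). Inside Tcf7l1, 3 regions of 140 to 636 bp touched the lncRNA gene Gm31391, and 1 touched Gm31249. The regions at the starts of Gsk3b and Tcf7l2 also touched the lncRNA genes BC031361 and Gm31734, and 2 upstream regions of Lef1 touched Gm36603.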
